A study of Homo sapiens with 6 samples.

Results

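The ZNF genes of chromosome 19 are the largest group of human zinc finger genes, and they were followed here after overexpression of the kinase SRPK2 in the MDA-MB-231 line, which comes from a triple-negative breast cancer. The members were the protein-coding genes placed on chromosome 19 in the deposited read table whose symbol is ZNF followed by a number and which had at least 60 reads summed over the 6 libraries. This gave 220 members of 241 such genes, in a table of 29710 genes. Cells with SRPK2-FLAG, an SRPK2 protein carrying the FLAG peptide (3 biological replicates), were set against empty vector cells (3 biological replicates) by strand-specific paired-end sequencing of total RNA. SRPK2 phosphorylates serine- and arginine-rich splicing factors, and the comparison asks which transcripts differ when it is raised. Both groups were the same line, and the type of vector and the selection of the cells are not described in the labels used here.

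Most ZNF proteins of chromosome 19 bind DNA through an array of C2H2 zinc fingers, each a short loop folded around a zinc ion that contacts a few bases. Many carry a KRAB domain at the amino end, which recruits TRIM28 (KAP1). TRIM28 in turn brings the histone methyltransferase SETDB1, heterochromatin proteins and the NuRD deacetylase complex to the bound site, where histone H3 is methylated and transcription falls. Their best known targets are endogenous retroviruses and other retroelements. The genes arose by repeated tandem duplication, so that neighbours in a cluster often resemble each other in sequence.

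The shared structure is visible in the coding sequence of the KRAB A box, the part of the domain that contacts TRIM28. The stretches of 24 codons below come from ZNF224, the member with the smallest unadjusted p, ZNF611, the member with the highest log2 fold change among those whose mean log2 CPM (CPM being reads scaled to library size) is 1 or more, ZNF114, the most abundant member, and ZNF91, the member with most fingers. They are read 5′ to 3′ on the coding strand from GRCh38 with GENCODE 29 gene models. Capitals mark the 32 of 72 bases that are the same in all 4.
ZNF224 (chr19:44100819-44100890, plus strand): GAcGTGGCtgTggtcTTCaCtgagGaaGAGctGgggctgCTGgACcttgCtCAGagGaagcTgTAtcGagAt
ZNF611 (chr19:52714052-52714123, minus strand): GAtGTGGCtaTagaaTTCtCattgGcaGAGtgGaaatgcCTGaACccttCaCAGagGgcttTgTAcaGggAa
ZNF114 (chr19:48282389-48282460, plus strand): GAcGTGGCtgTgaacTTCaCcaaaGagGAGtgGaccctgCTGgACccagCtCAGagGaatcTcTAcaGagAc
ZNF91 (chr19:23374675-23374746, minus strand): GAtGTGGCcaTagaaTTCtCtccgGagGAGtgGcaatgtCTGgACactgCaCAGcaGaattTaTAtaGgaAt

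A KRAB A box was found in the coding sequence of 188 members, and none was found in 32. The median member encoded 12 C2H2 fingers, and ZNF91 encoded 32, the highest number. In 2 members, ZNF738 and ZNF625-ZNF20, the chosen coding sequence held no finger. A motif of the SCAN domain, which pairs such proteins with each other, was found in ZNF274, ZNF444 and ZNF446, and only ZNF274 of these also had a KRAB A box. Members with a KRAB A box had a median of 13 fingers and a median transcript GC content of 42.1%. Those without one had a median of 9 fingers and a GC content of 61.5%.

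The libraries held 31140537 to 36908878 reads assigned to genes. SRPK2 itself stood at 30.4, 35.3 and 43.5 FPKM (fragments scaled to gene length and sequencing depth) in the SRPK2 libraries. With the empty vector it stood at 5.30, 5.09 and 5.90 FPKM, so the libraries fit their labels. The log2 fold change was 2.71 (SE 0.10, adjusted p = 2.94e-08 by the quasi-likelihood test of edgeR with Benjamini-Hochberg adjustment). Reads from the construct and from the gene's own locus cannot be told apart in gene totals. The line's expected markers were present in all 6 libraries, with VIM at 593 to 637 FPKM, CD44 at 93.2 to 98.8 FPKM and KRT18 at 147 to 160 FPKM. The hormone receptor genes ESR1 and PGR had at most 4 reads in a library. ERBB2, also expected to be absent or low in this line, was transcribed at 3.95 to 4.75 FPKM. Markers of leukocytes (PTPRC), liver (ALB) and muscle (DES) had at most 9 reads, and the endothelial marker PECAM1 had 0.35 to 0.54 FPKM. In bulk RNA of this kind, fewer cells with a transcript and less of it per cell cannot be told apart.

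The ZNF genes were transcribed at low levels. Together the 220 members took 0.271%, 0.264% and 0.289% of the reads in the SRPK2 libraries, against 0.257%, 0.255% and 0.271% with the empty vector, so the 2 groups overlapped. Scaled to gene length, the median member stood at 1.48 FPKM over the 6 libraries, 63 members were under 1 FPKM and 16 reached 5 FPKM. The gene length behind FPKM, derived from reads and FPKM, had a median of 5.99 kb over members. Their principal transcripts had a median of 3541 bases, so FPKM is not a level per transcript length. The median was 2.878 FPKM over all tested genes and 1.725 FPKM over ZNF genes on other chromosomes, so the low level was shared by ZNF genes elsewhere. Members with a KRAB A box had a median level of 1.35 FPKM, and members without one had 2.59 FPKM. On other chromosomes these medians were 1.485 and 2.044 FPKM, in the same order. Of the 8 most abundant members, 6 had no KRAB A box.

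ZNF114 was the most abundant, with 32.7, 33.5 and 34.8 FPKM in the SRPK2 libraries and 29.1, 29.6 and 31.1 FPKM with the empty vector. It encodes a KRAB A box but only 3 fingers. All SRPK2 libraries lay above all empty vector libraries for it, by a log2 fold change of 0.13 (edgeR, SE 0.05, adjusted p = 0.212), which missed the threshold of 0.05. ZNF146 (OZF), a protein made almost wholly of fingers, followed with 27.3, 28.2 and 30.2 FPKM in the SRPK2 libraries and 28.1, 28.0 and 29.1 FPKM with the empty vector. The 2 groups overlapped. The mean levels of ZNF114 and ZNF146 with the empty vector, 29.9 ± 1.07 and 28.4 ± 0.606 FPKM (SD, n = 3 each), were close to each other and well above the next member.

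ZNF428, with a single finger, had 18.3, 19.01 and 16.1 FPKM in the SRPK2 libraries and 19.6, 20.4 and 17.3 FPKM with the empty vector. ZNF787 came next, at 9.97, 10.3 and 9.53 FPKM with SRPK2 and 11.2, 11.5 and 10.6 FPKM with the empty vector. Its groups did not overlap. ZNF700, ZNF581, ZNF121 and ZNF580 completed the 8 with means over all libraries of 8.98, 8.12, 7.35 and 6.84 FPKM. ZNF428 overlapped between groups, as did ZNF700 and ZNF121.

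**Figure D1:**
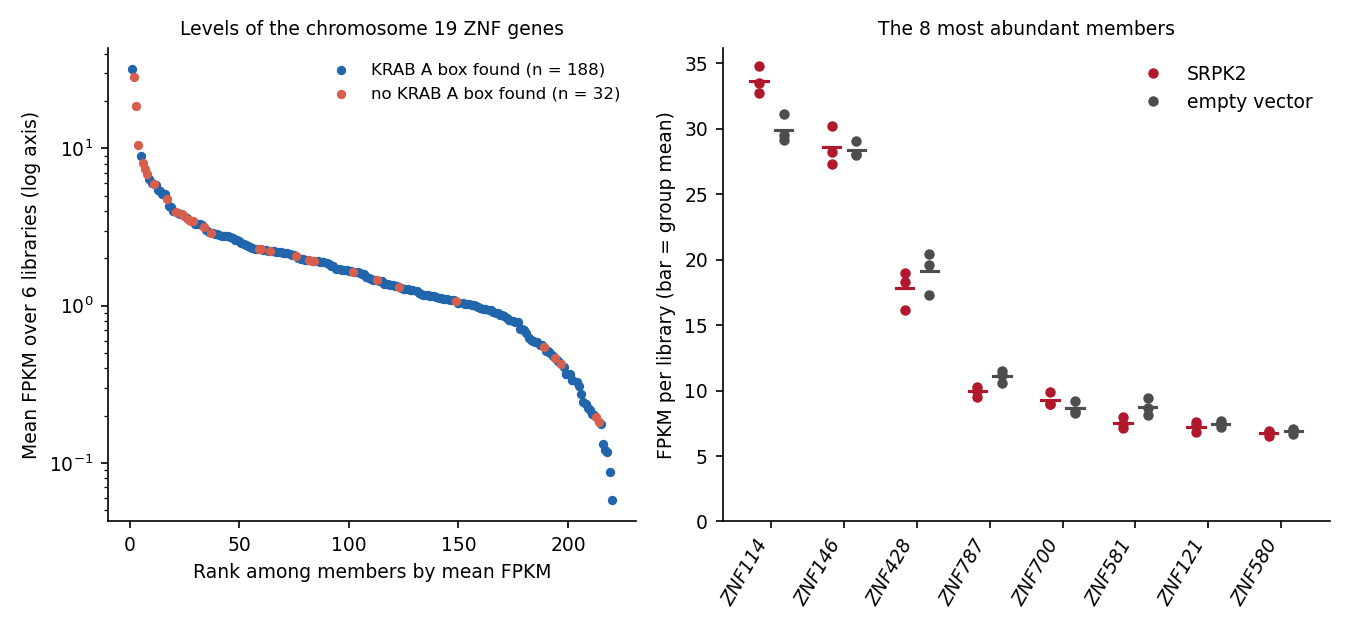
Left, the mean FPKM of each member over the 6 libraries (log axis) against its rank, coloured by whether a KRAB A box was found. Right, FPKM in each library for the 8 most abundant members, with SRPK2 libraries left of empty vector libraries and a bar at each group's mean. ZNF114 and ZNF146 stand near 30 FPKM, and most members lie between 0.1 and 5 FPKM.

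At the low end, the members just inside the minimum were ZNF540 with 88 reads over all libraries and ZNF773 with 107, and the genes just outside were ZNF223 with 52 and ZNF793 with 51. Of the 21 genes that fell short of the minimum, 14 had at most 8 reads in all 6 libraries together. ZNF208, ZNF229, ZNF285, ZNF541, ZNF667 and ZNF98 had 1 read each. At these counts it was not detectable whether the groups differ.

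None of the 220 members passed the test between SRPK2 and empty vector libraries. All 220 were tested, 0 were higher and 0 were lower at an edgeR adjusted p under 0.05, while 75 of all 16515 tested genes (0.454%) passed, 0.381% higher and 0.0727% lower. DESeq2 and limma-voom also called 0 members. With the replicate number as a block in edgeR, 11 members were higher and 4 lower, where 23.6% of all tested genes were called. Without the block, 15 members had an unadjusted edgeR p under 0.05, 12 of them higher with SRPK2 and 3 lower, against 17.2% of all tested genes. No member differed 2-fold, and 203 members (92.3%) had a log2 fold change within 0.25 of 0 in either direction. The replicate libraries of these data varied by a biological coefficient of variation of 5.85%.

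The differences that were seen leaned towards higher values with SRPK2. The members' median log2 fold change was 0.04, with quartiles at -0.03 and 0.12, and the median of all tested genes was 0.00. It was above 0 for 140 members (63.6%), against 51.2% of all tested genes. The SRPK2 libraries lay wholly above the empty vector libraries in 33 members (15.0%, against 11.5% of all tested genes) and wholly below in 7 (3.18%, against 8.69%). Over both directions that is 40 of the 220 members, a smaller share than the 20.1% of all tested genes. The lean was small next to the spread between libraries, and without SRPK2 replicate 3 the median was 0.02. The members' median deviation from each gene's mean on the log2 CPM scale was 0.0133, -0.0102 and 0.0656 in the SRPK2 libraries and -0.0366, -0.0315 and 0.00364 in the empty vector libraries, and SRPK2 replicate 2 lay below empty vector replicate 3.

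**Figure D2:**
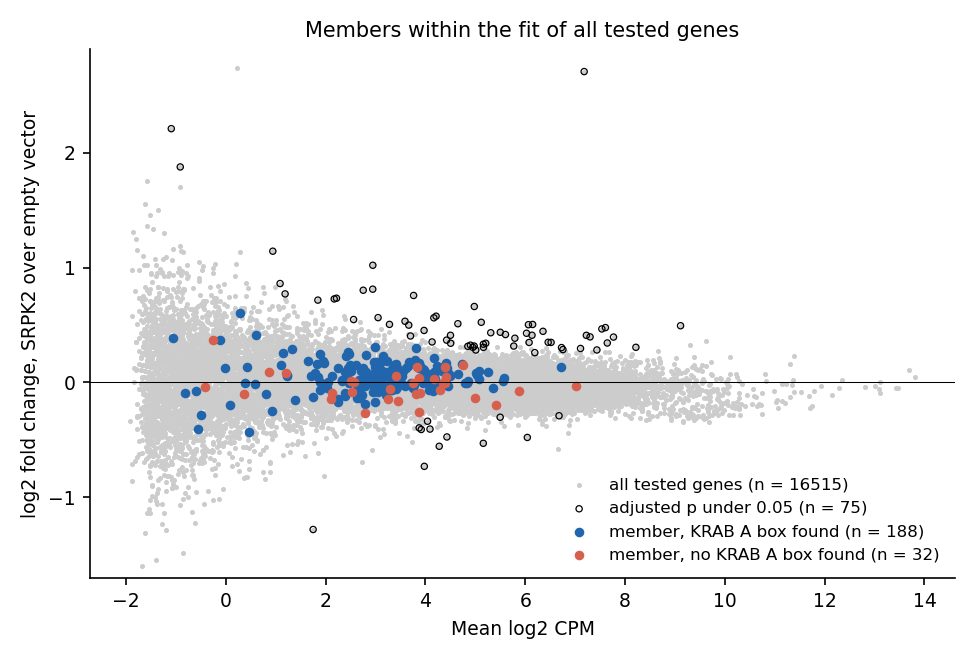
Each point is a tested gene, with its mean log2 CPM on the horizontal axis and the log2 fold change of SRPK2 over empty vector on the vertical axis. Members are coloured by whether a KRAB A box was found, and rings mark the 75 genes with an adjusted p under 0.05, none of them a member.

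The same lean was present in ZNF genes elsewhere in the genome. The 231 tested protein-coding ZNF genes on other chromosomes had a median log2 fold change of 0.05, 156 of them above 0 and 0 past the threshold. The other 760 protein-coding genes tested on chromosome 19 had a median of -0.01, and 2 of them were higher at an edgeR adjusted p under 0.05. No test was made of the members against either group.

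Members with and without a KRAB A box differed in sign. The 188 with one had a median log2 fold change of 0.06, and 128 of them were above 0. The 32 without one had a median of -0.03, with 12 above 0, although this median was 0.00 with libraries scaled by size alone and with unfiltered log2(FPKM + 1). In those 2 settings the median of all tested genes was 0.0402 and 0.0063. The KRAB median was 0.02 without SRPK2 replicate 3, and the median without a KRAB A box was -0.02 without SRPK2 replicate 2 or 3 and -0.08 without SRPK2 replicate 1. The groups did not overlap in 30 KRAB members that were higher with SRPK2 (16%) and 3 that were lower (1.6%), while among members without a KRAB A box 3 were higher (9.38%) and 4 were lower (12.5%). Over all tested genes these shares were 11.5% and 8.69%. The gap between the medians of both classes in a single library, KRAB minus no KRAB, was -0.025, 0.0605 and 0.0993 (log2 CPM) in the SRPK2 libraries and -0.114, -0.0516 and 0.00162 in the empty vector libraries. SRPK2 replicate 1 lay below empty vector replicate 3 in this measure, so the groups overlapped. On other chromosomes, 107 ZNF genes with a KRAB A box had a median of 0.05 and 124 without one had a median of 0.04.

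**Figure D3:**
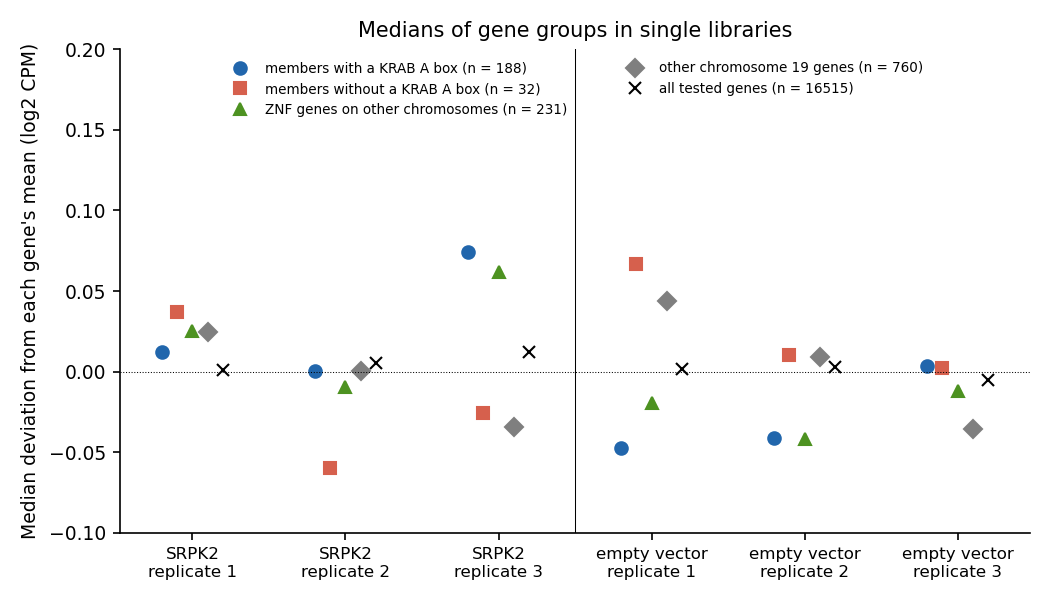
Median deviation from each gene's own mean (log2 CPM) in each library, SRPK2 libraries at left and empty vector libraries at right, for members with and without a KRAB A box, ZNF genes of other chromosomes, other chromosome 19 genes and all tested genes. KRAB members reach 0.0739 in SRPK2 replicate 3, while the values of SRPK2 replicate 2 (0.000408) and empty vector replicate 3 (0.00364) nearly coincide.

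The classes also differed in base composition and length, which moved with the fold changes mainly in members without a KRAB A box. Across members, the log2 fold change had a Spearman correlation of -0.25 with transcript GC content (n = 220) and 0.223 with gene length (n = 218), and across the 32 members without a KRAB A box these were -0.509 and 0.668. Across members with a KRAB A box they were weak, at -0.118 with GC content (n = 188) and 0.0917 with length (n = 186). Genes are not independent replicates, and all points come from the same 6 libraries. Across all tested genes the correlation was 0.295 with length and -0.0319 with GC content. The median of this derived length was 6.30 kb in KRAB members and 4.10 kb in the others. Their principal transcripts had median lengths of 3598 and 2732 bases. After each library was corrected for gene length, the KRAB median was 0.03, the median without KRAB -0.03 and that of all members 0.02, while the median of all tested genes was -0.01. After a correction for transcript GC content, which was chosen after the data were seen, they were 0.04, -0.03 and 0.04. This correction left most of the members' correlation with GC content in place, at -0.19. These medians are therefore not values with the GC relation removed. The length correction left a correlation of -0.0163 with length.

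**Figure D4:**
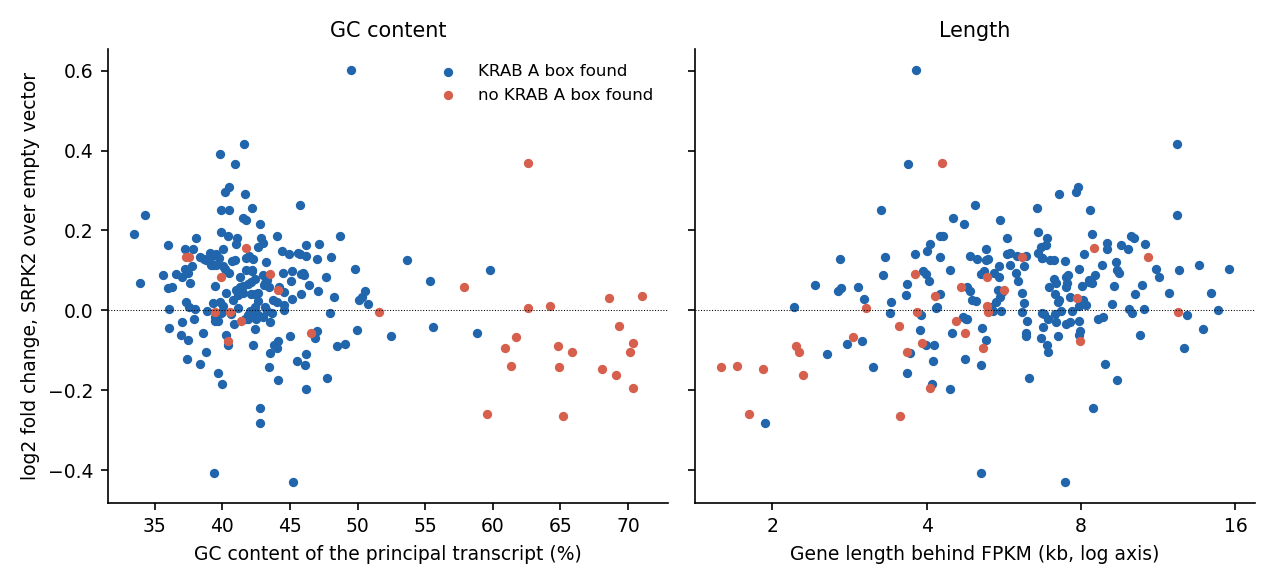
Log2 fold change of SRPK2 over empty vector for each member, coloured by whether a KRAB A box was found. The horizontal axis is the GC content of its principal transcript (left) or the length derived from reads and FPKM, in kb on a log axis (right). Members without a KRAB A box spread to GC contents above 60%, and those of shortest length mostly lie below 0.

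Among members whose mean log2 CPM reached 1, ZNF611 and ZNF224 had the highest log2 fold changes. ZNF224, a KRAB protein known as a repressor of the aldolase A gene, had 14.7, 14.8 and 16.5 CPM in the SRPK2 libraries and 12.2, 12.3 and 13.01 CPM with the empty vector. All SRPK2 libraries were above all empty vector libraries. Its log2 fold change was 0.30 (SE 0.07), a 1.23-fold difference, with the smallest unadjusted p of the members at 0.00137 and an edgeR adjusted p of 0.114. In the alternatives its adjusted p ran from 0.000734 to 0.439 (edgeR, DESeq2 and limma). It was called with no filter on low counts (edgeR adjusted p = 0.0163), where 3.36% of all genes were called, without SRPK2 replicate 2 (0.0298), where 8.37% were, and with the replicate number as a block (0.000734), where 23.6% were.

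ZNF611 had 9.29, 7.64 and 9.37 CPM in the SRPK2 libraries and 7.08, 6.99 and 7.16 CPM with the empty vector. The SRPK2 libraries were all higher, but replicate 2 by far the least, and without it ZNF611 was called (edgeR adjusted p = 0.0221, in a range of 0.00747 to 0.518 over all alternatives). With all libraries the log2 fold change was 0.31 (edgeR, SE 0.10, adjusted p = 0.179). ZNF442, at 2.46, 3.06 and 2.53 CPM with SRPK2 and 2.33, 1.94 and 2.30 CPM with the empty vector, had 0.29 (SE 0.15, adjusted p = 0.331 in edgeR), and ZNF429 had 0.25. For ZNF418, ZNF235 and ZNF14, with log2 fold changes of 0.25 to 0.26, the groups overlapped. ZNF418, for example, stood at 5.97, 6.21 and 5.64 CPM with SRPK2 and 3.93, 4.87 and 6.01 CPM with the empty vector.

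The lowest values at this abundance belonged to 3 members without a KRAB A box and with GC-rich transcripts. ZNF787 had 40.4, 41.9 and 37.4 CPM in the SRPK2 libraries and 46.1, 47.96 and 42.7 CPM with the empty vector, with a log2 fold change of -0.19 (edgeR, SE 0.06, adjusted p = 0.190) and a GC content of 70.3%. ZNF581 had 13.3, 14.4 and 12.4 CPM with SRPK2 and 15.9, 17.5 and 14.6 CPM with the empty vector, for a log2 fold change of -0.26 (edgeR, SE 0.08, adjusted p = 0.191). All SRPK2 libraries lay below all empty vector libraries in both genes. Both were called without SRPK2 replicate 2 (edgeR adjusted p = 0.0457 for ZNF787 and 0.0417 for ZNF581), while over all alternatives the adjusted p ran from 0.00031 to 0.515 for ZNF787 and from 0.00219 to 0.515 for ZNF581. ZNF581 shares exonic sequence on its own strand with its neighbour ZNF580, so their reads may not be fully separated. ZNF580 had a log2 fold change of -0.07.

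ZNF653 had 6.32, 6.01 and 6.47 CPM in the SRPK2 libraries and 7.25, 7.58 and 7.76 CPM with the empty vector, which did not overlap. Its log2 fold change was -0.26 (edgeR, SE 0.09, adjusted p = 0.192), and its exons overlap those of ECSIT on the same strand. ZNF880, ZNF555 and ZNF557, which have KRAB A boxes, came next at -0.18, -0.17 and -0.17, each with overlapping groups. Thus ZNF653, ZNF581 and ZNF787 were the lowest 3 at this abundance and the only members at an unadjusted p under 0.05 in the lower direction. Larger log2 fold changes than these were seen only in members with fewer reads, up to 0.60 in ZNF132 (242 reads in all) and down to -0.43 in ZNF599 (278 reads), both singled out here after their values were seen.

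The promoters of ZNF224 and ZNF787 differ in base composition. They are 1 member from each direction of change and do not stand for the other members there. The window runs from 250 bases before to 50 after the start of the gene, from RefSeq (GRCh38.p14), which held a promoter for 197 members. Capitals mark CG dinucleotides, of which ZNF224 has 20, the median of the members, and ZNF787 has 32. The median over 35116 promoters in the table is 14, and 18.9% of them have at least as many as ZNF787.
ZNF224 (chr19:44094111-44094410, plus strand): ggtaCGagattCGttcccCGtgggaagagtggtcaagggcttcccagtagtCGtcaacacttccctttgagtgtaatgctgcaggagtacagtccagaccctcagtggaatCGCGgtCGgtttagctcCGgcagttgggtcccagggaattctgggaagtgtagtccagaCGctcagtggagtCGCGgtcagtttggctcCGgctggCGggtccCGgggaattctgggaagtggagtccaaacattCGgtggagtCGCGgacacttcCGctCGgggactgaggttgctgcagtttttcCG
ZNF787 (chr19:56121246-56121545, minus strand): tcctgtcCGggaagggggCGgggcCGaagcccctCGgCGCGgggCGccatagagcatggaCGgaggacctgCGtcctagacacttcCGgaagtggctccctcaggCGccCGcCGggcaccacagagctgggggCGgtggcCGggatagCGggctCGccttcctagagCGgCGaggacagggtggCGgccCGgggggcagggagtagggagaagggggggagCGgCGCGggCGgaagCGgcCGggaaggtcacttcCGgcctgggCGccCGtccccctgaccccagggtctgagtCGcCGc
The letters TTCTGGGA occur 2 times in the ZNF224 window and CTTCCGG 3 times in that of ZNF787, counting both strands. In ZNF787, 2 of the 3 matches come from 1 stretch, CTTCCGGAAG, which reads the same on both strands. The window of ZNF611 held TTCTGGGA 0 times and CTTCCGG 1 time, and that of ZNF581 held each 0 times. These letters were picked after both promoters had been read, and both genes are among the members counted next. ZNF genes on other chromosomes were not counted on their own, so the shares are not shown to be particular to chromosome 19. TTCTGGGA was present in the windows of 25 of 197 members (12.7%), against 2.78% of 27305 promoters with 1 per gene symbol. CTTCCGG was present in 89 members (45.2%), against 10.7% of those promoters, and in 48.8% of members with a KRAB A box and 25.8% of those without. The promoters were not matched for base composition, and a match is a description of letters, not of binding.

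Most of the members with known roles had overlapping groups, as did most of all tested genes, of which 20.1% did not overlap. ZNF91, which silences SVA and LINE-1 retroelements in primates, had 14.6, 16.4 and 17.5 CPM in the SRPK2 libraries and 15.99, 13.6 and 16.2 CPM with the empty vector, with overlapping groups and a log2 fold change of 0.08 (SE 0.09). ZNF93, which binds LINE-1 elements, had 16.9, 16.2 and 18.1 CPM with SRPK2 and 16.6, 16.5 and 16.6 CPM with the empty vector, a log2 fold change of 0.04 (SE 0.07). ZNF43, which lies in the same block of genes as ZNF93, had 0.09 (SE 0.07). ZNF274, which brings SETDB1 to the ends of other ZNF genes, had 47.96, 46.4 and 47.5 CPM with SRPK2 and 44.7, 48.9 and 46.9 CPM with the empty vector, a log2 fold change of 0.02 (SE 0.05).

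ZNF350 (ZBRK1), a partner of BRCA1, had a log2 fold change of 0.02. ZNF473, which takes part in forming the ends of histone mRNAs, had 0.03. ZNF420 (APAK), a regulator of p53, had -0.06. ZNF568, whose mouse counterpart represses a placental transcript of Igf2, also had -0.06, and ZNF444, a SCAN protein, had 0.03. The groups overlapped in each of these, and also in ZNF649 and in ZNF671, a gene often methylated in tumours, at -0.02 and -0.05.

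ZNF331, an imprinted gene, was among the members whose groups did not overlap. It had 27.6, 26.0 and 30.9 CPM with SRPK2 and 23.8, 25.7 and 26.0 CPM with the empty vector, which gave a log2 fold change of 0.16 (edgeR, SE 0.07, adjusted p = 0.269). Its lowest SRPK2 library and highest empty vector library were almost level. ZNF382, described as a tumour suppressor silenced by methylation, was nearly off at 0.14, 0.13 and 0.14 FPKM with SRPK2 and 0.07, 0.10 and 0.13 FPKM with the empty vector. Its log2 fold change of 0.42 (edgeR, SE 0.21, adjusted p = 0.322) rests on 304 reads, and was 0.22 without empty vector replicate 1 and 0.64 without empty vector replicate 3.

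Along the chromosome the members fell into 16 blocks, within which the gap between neighbours is at most 1 Mb, and 9 blocks with at least 5 members held 207 of them. The largest, from ZNF628 to ZNF446 near the end of the long arm (55.5 to 58.5 Mb, GRCh38), held 55 members with a median log2 fold change of 0.03 and 31 above 0. It included ZNF581, ZNF580 and ZNF787, and 14 of the 32 members without a KRAB A box. The block from ZNF175 to ZNF331 held 36 members, 35 of them with a KRAB A box, with a median of 0.04 and 25 above 0. In 8 of them all SRPK2 libraries lay above all empty vector libraries, and in 0 of them below (22.2% and 0.0%, against 11.5% and 8.69% of all tested genes).

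The block from ZNF101 to ZNF43 (19.7 to 21.9 Mb), where ZNF93 and ZNF429 lie, had the highest median of the 9, 0.09, with 17 of 21 members above 0. Its library medians were -0.0109, 0.0148 and 0.107 in the SRPK2 libraries and -0.0866, -0.0558 and -0.00611 in the empty vector libraries, so SRPK2 replicate 1 was below empty vector replicate 3. The block from ZNF575 to ZNF296, which holds ZNF224 and ZNF428, had the lowest, 0.00, with 10 of 20 above 0. The block from ZNF565 to ZNF573 had a median of 0.08 over 25 members and that from ZNF653 to ZNF791 one of 0.04 over 25. No block held a member past the edgeR threshold.

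The levels of 3 further members, each among those with most reads in its block, were lower than those of ZNF146 or ZNF428. ZNF302, in the block from ZNF302 to ZNF792, averaged 6.09 ± 0.483 FPKM in SRPK2 libraries and 5.60 ± 0.255 FPKM with the empty vector (SD, n = 3 each). ZNF480, in the block from ZNF175 to ZNF331, averaged 5.47 ± 0.110 FPKM with SRPK2 and 5.30 ± 0.538 FPKM with the empty vector. ZNF260, which had 13 fingers and no KRAB A box, averaged 3.63 ± 0.344 FPKM with SRPK2 and 3.23 ± 0.233 FPKM with the empty vector. Of these genes only ZNF260 had groups that did not overlap in CPM.

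**Figure D5:**
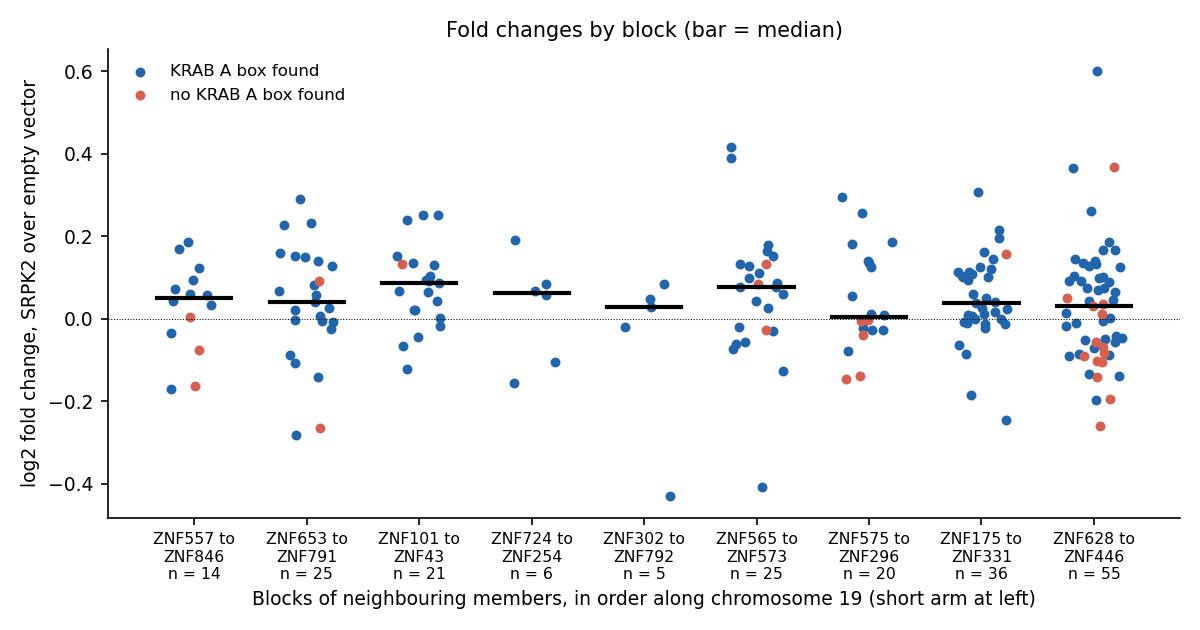
Log2 fold change of SRPK2 over empty vector for each member of the 9 blocks with at least 5 members, in chromosome order, with a bar at each block's median and colours for the KRAB A box. The medians lie between 0.00 and 0.09, and every block has members on both sides of 0.

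Near-identical neighbours limit how far single members can be read. In 46 members at least 1 window of 100 transcript bases was shared with another locus, and in 7 at least 10% of the windows were. The clearest pair is ZNF417 and ZNF587, each with 1725 coding bases, which are identical over a run of 538 bases, and ZNF417 shared 24.1% of its windows. A stretch of 96 bases from each shows 1 differing base in capitals, at the end of that run.
ZNF417 (chr19:57909665-57909760, minus strand): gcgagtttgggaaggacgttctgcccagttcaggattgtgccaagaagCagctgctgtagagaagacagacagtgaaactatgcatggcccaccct
ZNF587 (chr19:57858930-57859025, plus strand): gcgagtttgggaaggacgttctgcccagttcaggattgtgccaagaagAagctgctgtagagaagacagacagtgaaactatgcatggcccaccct
The values of both genes are uncertain, because no source used here says how reads that match both were assigned. Exons of 75 members overlapped another gene on the same strand. The 119 members with neither an overlap of this kind nor a shared window had a median log2 fold change of 0.03, and 75 of them were above 0.

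The genes through which KRAB proteins act were examined as a list of their own. Of 30 corepressor genes, covering TRIM28, SETDB1 and its partners, the heterochromatin proteins, NuRD and the HUSH complex, all were tested, and 0 were higher and 0 lower at an edgeR adjusted p under 0.05, with 6 at an unadjusted p under 0.05. With 0.454% of all tested genes called and 17.2% at an unadjusted p under 0.05, these counts do not set the list apart. The SRPK2 libraries lay wholly above the empty vector libraries in 7 of the 30 and wholly below in 1. Over all tested genes these shares were 11.5% and 8.69%, and the difference was not tested. The median log2 fold change of the list was -0.01, which became 0.03 with libraries scaled by size alone and on deposited FPKM. The median of all tested genes moved too, from 0.00 to 0.0402 by size alone. At a mean FPKM of at least 0.5 it was 0.0253 on log2(FPKM + 1) and 0.0328 on log2(FPKM + 0.1), and 0.0063 on unfiltered log2(FPKM + 1). TRIM28, itself at the end of the chromosome 19 long arm, stood at 68.3, 63.8 and 66.8 FPKM with SRPK2 and 68.5, 63.8 and 67.2 FPKM with the empty vector. Its groups overlapped, and its log2 fold change was -0.04 (SE 0.05).

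SETDB1 had 26.0, 26.9 and 26.1 CPM in the SRPK2 libraries and 22.9, 23.04 and 24.98 CPM with the empty vector, which did not overlap, for a log2 fold change of 0.15 (edgeR, SE 0.06, adjusted p = 0.227). MORC2, a chromatin ATPase that works with HUSH, was the highest of the list at 43.8, 39.0 and 41.3 CPM with SRPK2 and 36.5, 34.3 and 35.8 CPM with the empty vector. Its groups did not overlap either, and its log2 fold change was 0.22 (edgeR, SE 0.06, adjusted p = 0.145). It was called without SRPK2 replicate 2 (edgeR adjusted p = 0.0247), and its adjusted p ran from 0.000144 to 0.432 over the alternatives. SUMO2, the modifier attached to TRIM28, was the lowest at -0.14 (SE 0.08), with overlapping groups.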

How the data were processed

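The study sequenced 6 libraries, grouped here by their titles. The submitters' processing notes name bcl2fastq, FastQC, HISAT2 and GRCh38, with no version. No source used here gives the annotation release, the read counter or its strand setting. The authors deposited whole-number read counts for 29710 genes, not normalized, and FPKM values for 29256 genes. The test of counts was that of edgeR 4.0.16 under R 4.3.3 (TMM, filterByExpr, two-sided quasi-likelihood test, 16515 genes, adjustment over all of them, threshold 0.05). CPM values were TMM scaled, and FPKM values are as deposited. The alternatives used DESeq2 1.42.0 and limma 3.58.1, including limma fits to log2(FPKM + 1) and log2(FPKM + 0.1). The code was tested on simulated counts. Gene models came from GENCODE 29 (28804 identifiers matched). KRAB A boxes and fingers were found by pattern in translated coding sequences, so a variant form may have been missed. Blocks and named members followed a written rule: known roles, largest changes at a mean log2 CPM of at least 1, highest FPKM, most reads per block and the read minimum. Not every member it names is printed. The members and lists were chosen with earlier results of these data known. Replicate numbers were not treated as pairs. The p-values measure the spread between 3 replicates of 1 line. Python 3.11.15 and matplotlib 3.10.9 drew the figures.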

Additional observations from a re-analysis of the deposited data

How the results depend on the processing

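The counts of 0 members held in edgeR with RLE size factors, library size alone, a mean CPM of at least 1, a gene length or GC correction, in DESeq2 and limma-voom, and in limma on log2 FPKM. With no filter on low counts, 1 member was higher (ZNF224), 1 lower (ZNF581) and 1 corepressor was called, where 3.36% of all genes were. With the replicate block, 11 members were higher, 4 were lower and 11 corepressors were called, where 23.6% of all genes were called. With the block and the length correction these were 7, 4 and 10, with 21.3% of all genes. The replicate numbers are not known to pair the samples: same-numbered libraries had correlated deviations of 0.0839, 0.23 and 0.171, and every library correlated best with the one of its own number, which is a hint from the data and not from the design. Leaving out 1 library gave 0 to 3 members higher, 0 to 2 lower and 0 to 3 corepressors, the highest each time without SRPK2 replicate 2, when 8.37% of all genes were called. The number of non-overlapping members, 40 with all libraries, was then 51 to 82, since fewer libraries overlap less: it was 63 without SRPK2 replicate 1 (28.7% of all genes), 75 without SRPK2 replicate 2 (42.5%) and 82 without empty vector replicate 3 (36.4%). The members' median stayed above 0 in every alternative, 0.016 to 0.0603 with 1 library left out, lowest without SRPK2 replicate 3. It was 0.0794 by library size alone, when that of all genes was 0.0402, and 0.0764 on log2(FPKM + 0.1). The KRAB median was 0.0941 by library size alone and 0.0241 to 0.0774 with 1 library left out, the lowest without SRPK2 replicate 3. The median without KRAB was -0.0786 to -0.0154 with 1 library left out, the lowest without SRPK2 replicate 1. The corepressor median was 0.0269 by library size alone, 0.0261 on log2(FPKM + 1) with or without the filter and 0.0271 on log2(FPKM + 0.1). The causes were not tested beyond the fewer samples.

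Named genes near 0, none of them called, changed sign as follows. By library size alone ZNF146 was at 0.01 and ZNF649 at 0.0141. On log2(FPKM + 1) with or without the filter they were at 0.00883 and 0.00451, and on log2(FPKM + 0.1) at 0.00907 and 0.00747. With the length correction ZNF274 was at -0.0347, ZNF444 at -0.0116 and ZNF473 at -0.00867, and with the block added at -0.0348, -0.00914 and -0.00812. With 1 library left out, the ranges were -0.0169 to 0.0439 for ZNF274, -0.042 to 0.093 for ZNF350, -0.00584 to 0.0745 for ZNF444, -0.11 to 0.00938 for ZNF568, -0.101 to 0.0157 for ZNF649, -0.128 to 0.0604 for ZNF671 and -0.00854 to 0.0798 for ZNF93.

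Depth limits the members with few reads, as the SE of 0.21 (log2) of ZNF382 shows.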
